A study of Mus musculus with 14 samples.

Results

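The keratin-associated proteins of the hair shaft were followed here in the skin of Tsk2 and WT mice, with cultured fibroblasts as background. Every gene whose symbol in the array's platform annotation starts with Krtap was taken, which gave 42 genes on 46 probes, out of 19532 named genes on 41174 probes. The 42 genes fall into 23 subfamilies by the number after Krtap, and 39 of them rested on 1 probe. A gene's value was the mean of its probes. Skin RNA came from 4-week-old female mice, 4 of them Tsk2 and 4 WT, and per the series title Tsk2 mice carry 1 copy of a gain-of-function Col3a1 mutation. The design text counts 3 mice per genotype where the labels hold 4, and all were used. Strain is not stated in the labels. The fibroblasts were Col3a1 knockout cells in both arms, with 3 arrays of cells transfected with the Tsk2 form of Col3a1 and 3 of cells transfected with the WT form, and the labels do not say whether the arrays of 1 arm came from separate cultures. By title the WT-form arrays are numbered 1, 3A and 3B, so 3A and 3B may share 1 transfection. They were merged in 1 setting of the comparison within fibroblasts, and contrasts of skin with fibroblasts kept them apart. Each array set the Cy5-labelled sample against a Cy3-labelled universal mouse reference RNA, and every value below is a log2 ratio of the sample to that reference. Precision here is limited by how many arrays each group holds.

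Keratin-associated proteins form the matrix in which the keratin filaments of the hair shaft are embedded, and they are joined to the filaments and to each other by disulfide bonds. They are made in the cortex and cuticle cells of growing hair follicles, above the dividing matrix cells, after hair keratins have begun to appear, and dermal fibroblasts are not known as a source of them. The cysteine-rich members include subfamilies 1 to 5 and 9, and the glycine- and tyrosine-rich members include subfamilies 6 to 8 and 19 to 22. Their genes are short and lie in clusters. Of the 42 genes, 21 are on chromosome 16, 15 on chromosome 11, 4 on chromosome 7 and 1 each on chromosomes 1 and 10, per RefSeq's table for GRCm38.p6, in which all 42 were found by gene ID. The clusters hold close paralogs, and probes were not separated from near-identical members, so the value of a single gene may include its neighbours in sequence.

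The promoters of several members are shown because the genes moved together in skin and many share a TATA box. The letters are the 60 bases before the RefSeq start in GRCm38.p6, 5′ to 3′ on the gene's strand, and capitals mark TATAAA where it starts 40 to 20 bases before the start. Krtap4-2 (chr11:99635085-99635144, minus strand) had the most negative difference in skin, Krtap5-1 (chr7:142297135-142297194, minus) and Krtap6-1 (chr16:89031639-89031698, plus) stand for the other clusters, and Krtap3-2 (chr11:99556854-99556913, minus) and Krtap17-1 (chr11:99993995-99994054, minus) are the members that lay well above fibroblasts in Tsk2 skin.
Krtap4-2: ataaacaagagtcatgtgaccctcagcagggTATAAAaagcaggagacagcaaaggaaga
Krtap5-1: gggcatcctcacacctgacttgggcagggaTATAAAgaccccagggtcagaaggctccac
Krtap6-1: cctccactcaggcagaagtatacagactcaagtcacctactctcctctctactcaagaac
Krtap3-2: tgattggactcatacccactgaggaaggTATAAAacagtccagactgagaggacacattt
Krtap17-1: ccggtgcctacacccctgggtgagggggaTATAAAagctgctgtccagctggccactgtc
A promoter was found for 39 of the 42 genes. TATAAA stood in that window, on the gene's strand, in 23 of the 39 (59.0%), against 655 of 32851 promoters in the whole table (1.99%). By cluster it was in 12 of 14 promoters on chromosome 11, in 8 of 20 on chromosome 16 and in 2 of 4 on chromosome 7. The letters CTTTGA, part of the sites that LEF1-type factors bind, occurred on either strand of the 250 bases before the start in 9 of 39 members (23.1%) and 4544 of 32851 promoters (13.8%). These are matches of letters, and members with and without TATAAA had median differences in skin of -4.55 and -4.07.

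The values of these genes have 2 features that bear on the comparisons. One WT mouse, replicate 4, stood apart, with the lowest WT value for 40 of the 42 members and with 36 of them more than 2 log2 units below the other WT mice. The median over the 42 genes was 0.54, 0.56, 0.15 and 0.07 in Tsk2 replicates 1 to 4, against 5.75, 6.05, 5.99 and 1.23 in WT replicates 1 to 4. So the WT group divides into 3 mice with high ratios and 1 with low ratios, and the counts in skin below are given with and without that mouse. It was singled out by these same Krtap values, so leaving it out widens the difference of 40 members by selection. Calls and p-values of Krtap genes without it show how far the counts hang on 1 mouse and are no support for a fall. Second, many probes carried a value that recurred 50 times or more on the same array, a mark of dim probes. Of Krtap probes, 62.0% of values in Tsk2 skin and 10.9% in WT skin were such repeated values, against 40.8% and 41.0% over all probes of these arrays. On the array of WT replicate 4, 39.4% of all probes were at repeated values, against 33.8% to 46.7% on the other skin arrays. Whether the low Krtap ratios of that mouse come from the animal or the array was not tested. In fibroblasts the Krtap shares were 78.3% with the Tsk2 allele and 77.5% with the WT allele. A difference that sets a repeated value in Tsk2 skin against a high ratio in WT skin has an uncertain size. Exact zeros made up 1 of 184 Krtap probe values in Tsk2 skin and 5 of 184 in WT skin, against 29 of 138 and 9 of 138 in fibroblasts with the Tsk2 and the WT allele. Over all probes, exact zeros made up 30.1% of the array of WT skin replicate 2 and 0.758% to 9.49% of the other skin arrays.

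**Figure D1:**
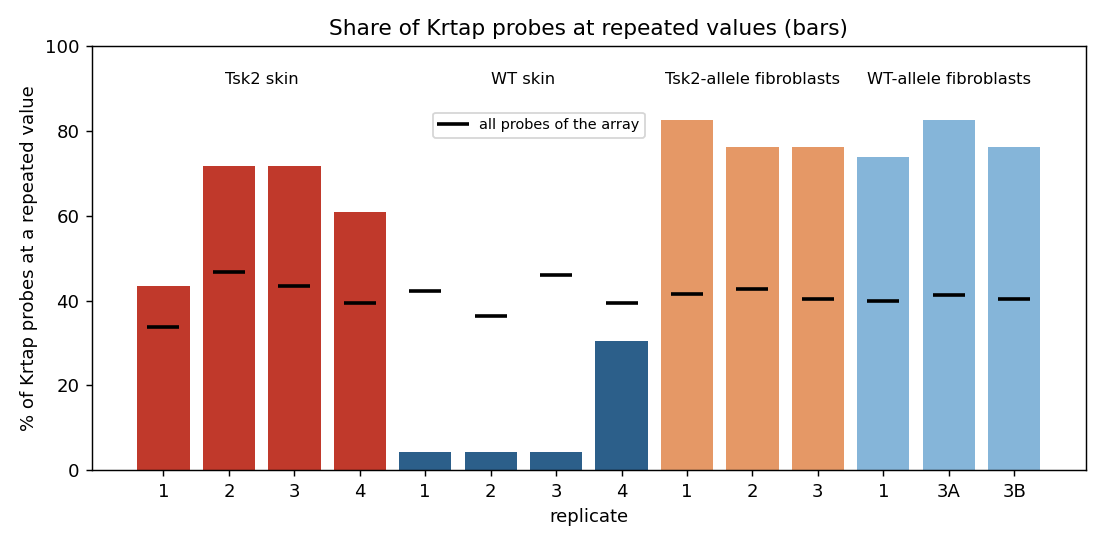
Bars give, for each array, the percent of the 46 Krtap probes at a value that recurs 50 times or more on that array, and black marks give the percent over all probes. Bars stand at 43.5% to 71.7% in Tsk2 skin, at 4.35% in WT replicates 1 to 3, at 30.4% in WT replicate 4 and at 73.9% to 82.6% in fibroblasts.

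In Tsk2 skin the keratin-associated protein genes were low as a family. Of the 42 genes, 41 were lower in Tsk2 than in WT skin, and 19 fell at an adjusted p under 0.05 by limma, where 0.998% of all genes tested fell. None was called higher, and 2.91% of all genes passed in either direction. The median difference over the 42 was -4.17, against 0.03 over all genes. For 23 members every Tsk2 mouse lay below every WT mouse, where this held for 6.75% of all genes. Without WT replicate 4, 40 of the 42 fell, where 4.17% of all genes fell, and the median difference was -5.42. This count is over the genes that singled out that mouse, so it is no further support. In WT replicates 1 to 3 alone, 40 members lay above all 4 Tsk2 mice. That split leaves out the WT mouse singled out for its low Krtap values, and its share over all genes was not counted. The calls also depended on which mouse was left out. Dropping Tsk2 replicate 1 left 12 calls by limma, where 451 of all genes passed in either direction. Dropping any one of Tsk2 replicates 2 to 4 or of WT replicates 1 to 3 left 0, and in those fits 0 genes of the whole array passed, 36 to 39 Krtap genes and 3473 to 4145 of all genes had an unadjusted p under 0.05, and 41 Krtap genes were lower. In whole skin, fewer hair-forming cells and less RNA per cell cannot be told apart.

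**Figure D2:**
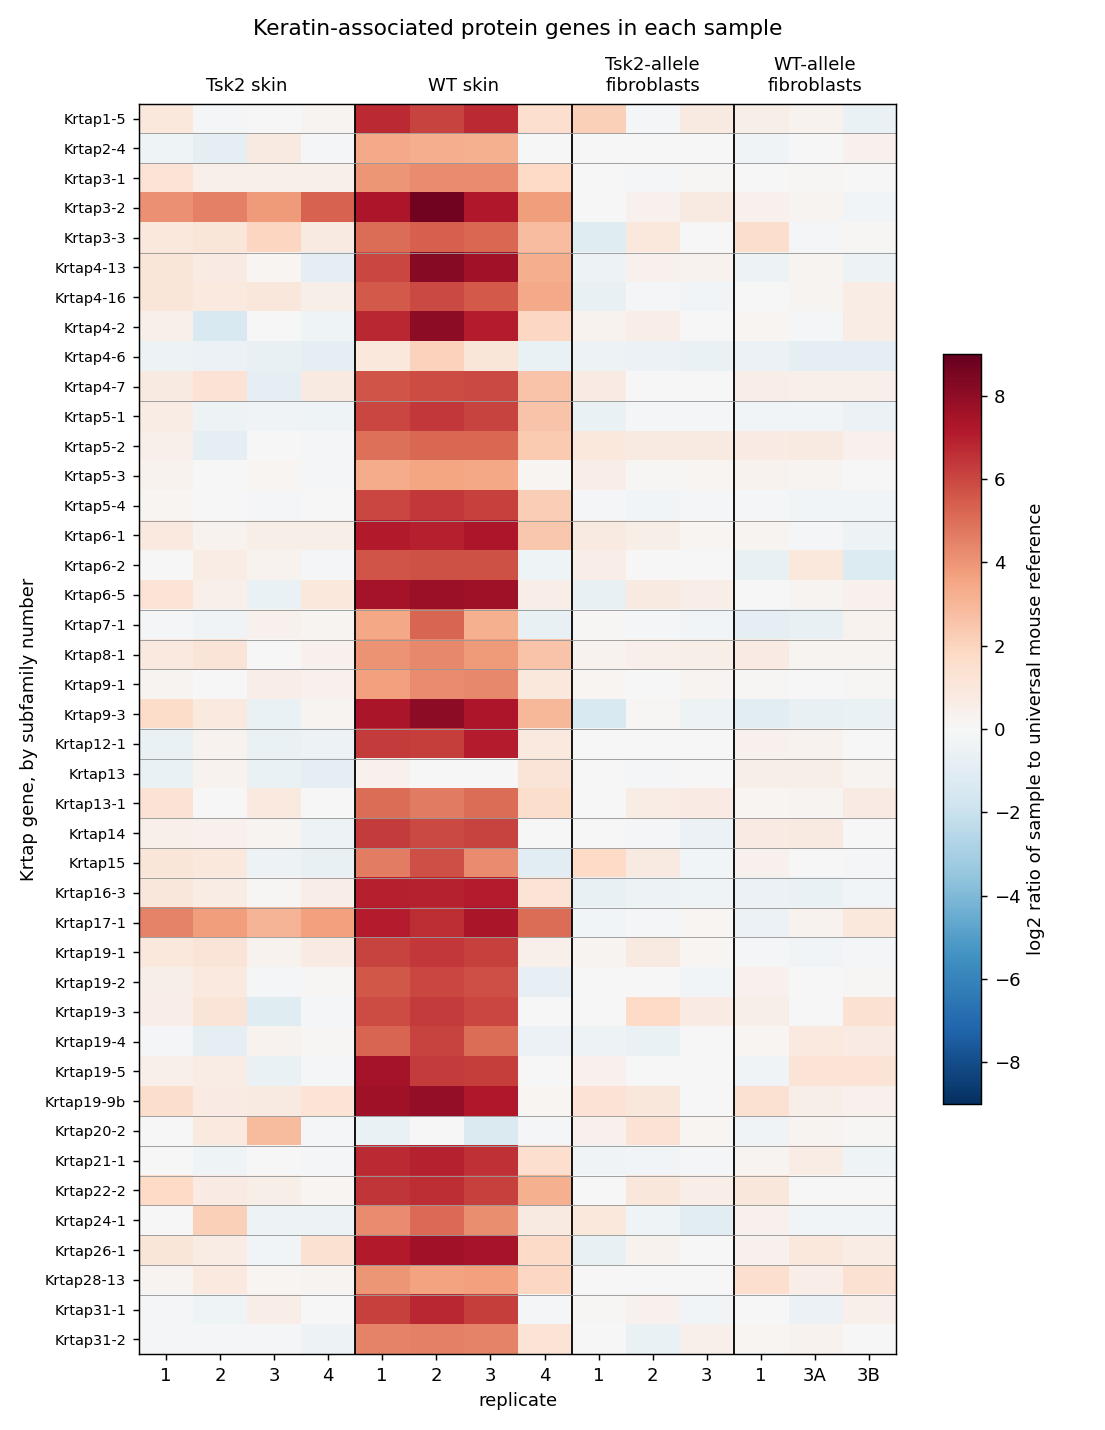
Each row is a Krtap gene, ordered by subfamily, and each column a sample, with Tsk2 skin, WT skin, Tsk2-allele fibroblasts and WT-allele fibroblasts from left to right and colour for the log2 ratio to the reference. WT replicates 1 to 3 are high in 40 rows, WT replicate 4 is intermediate in some, and Tsk2 skin is near the fibroblasts except in the rows of Krtap3-2 and Krtap17-1.

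Subfamily 4, ultra-high-sulfur proteins of the chromosome 11 cluster, held the most negative differences. Krtap4-2 read 0.45, -1.36, 0.04 and -0.35 in Tsk2 mice, against 6.77, 8.08, 7.08 and 1.83 in WT mice. It fell by 6.25 on the log2 scale (SE 1.2, adjusted p = 0.0384 by limma), and by 7.62 without WT replicate 4, with 75% of its Tsk2 values repeated. Krtap4-13 read 1.06, 0.72, 0.19 and -0.85 in Tsk2 mice, against 5.998, 8.16, 7.55 and 3.26 in WT mice, a difference of -5.96. In both genes the groups did not overlap, and WT replicate 4 lay between the Tsk2 mice and the other WT mice. Krtap4-7 fell by 4.49 and Krtap4-16 by 4.23, and Krtap4-16 had the lowest p of the family (adjusted p = 0.0229). Krtap4-6 differed by -1.53 (adjusted p = 0.110) and had low ratios in all mice, at -0.88 to -0.48 in Tsk2 mice and -0.57 to 2.11 in WT mice. Thus 4 of the 5 members fell, where 0.998% of all genes fell. All 5 did so without WT replicate 4, where 4.17% of all genes fell.

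Subfamily 9, of the same cluster, was also lower in Tsk2 skin. Krtap9-3 read 1.68, 0.90, -0.60 and 0.26 in Tsk2 mice, against 7.33, 8.07, 7.28 and 2.96 in WT mice, and fell by 5.85 (adjusted p = 0.0326). Krtap9-1, with no repeated value on any skin array, averaged 0.31 ± 0.24 in Tsk2 skin and 3.30 ± 1.60 in WT skin (SD, n = 4 each; adjusted p = 0.0548 by limma). Its groups did not overlap. Without WT replicate 4, the mouse singled out by its Krtap values, the difference of Krtap9-1 was -3.78 (adjusted p = 0.000135 by limma).

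Subfamily 5, the ultra-high-sulfur proteins on chromosome 7 found in the hair cuticle, was low in Tsk2 skin without repeated values in 2 of its 4 members. Krtap5-1 and Krtap5-4 had no repeated value on any skin or fibroblast array. Krtap5-1 read 0.69, -0.47, -0.29 and -0.36 in Tsk2 mice, against 6.02, 6.33, 6.06 and 2.59 in WT mice, and fell by 5.36 on the log2 scale (SE 0.78, adjusted p = 0.0243 by limma). Krtap5-4 read 0.14, -0.04, -0.14 and 0.03 in Tsk2 mice, against 6.03, 6.40, 6.17 and 2.18 in WT mice, and fell by 5.19 (SE 0.85, adjusted p = 0.0284 by limma). Fibroblasts spanned -0.60 to -0.14 for Krtap5-1 and -0.28 to -0.10 for Krtap5-4. So Tsk2 replicate 1 lay above all fibroblast arrays for Krtap5-1, and Tsk2 replicates 1, 2 and 4 did so for Krtap5-4. By group means, Tsk2 skin was not shown to exceed fibroblasts for either gene, with differences of 0.19 and 0.16 (adjusted p = 0.858 and 0.889 by limma), so the sizes of these falls are uncertain. Krtap5-2 fell by 4.55, with all its Tsk2 values repeated. Krtap5-3 differed by -2.54 (adjusted p = 0.0828), since WT replicate 4 read 0.16, inside the Tsk2 range of -0.10 to 0.29.

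The high-sulfur subfamilies 1 to 3 of chromosome 11 also held falls. Krtap1-5 fell by 4.96 (adjusted p = 0.0495), with ratios of -0.09 to 0.96 in Tsk2 mice against 1.48 to 6.71 in WT mice, and all its Tsk2 values were repeated. Krtap2-4 differed by -2.61 (adjusted p = 0.0934) and the groups overlapped, with WT replicate 4 at -0.03 and Tsk2 replicate 3 at 0.83. Krtap3-1 fell by 2.93 and Krtap3-3 by 3.38. The 3 probes of Krtap3-1 differed by -2.12, -2.30 and -4.37, the same direction with unlike sizes. Krtap31-2, also on chromosome 11, fell by 3.91, and Krtap31-1 differed by -4.75 (adjusted p = 0.0909), with WT replicate 4 at -0.09 against 6.15 to 6.77 in the other WT mice.

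Krtap3-2 and Krtap17-1, both on chromosome 11, were the members with clearly raised ratios in Tsk2 skin. Krtap17-1 read 4.49, 3.79, 3.07 and 3.68 in Tsk2 mice, against 7.06, 6.67, 7.36 and 5.02 in WT mice. It was 6.83-fold lower in Tsk2 skin (SE 0.51 log2 units, adjusted p = 0.0333 by limma), the groups did not overlap and none of its skin values was repeated. Krtap3-2 read 4.11, 4.53, 3.86 and 5.31 in Tsk2 mice, against 7.27, 8.71, 7.19 and 3.78 in WT mice. Here WT replicate 4 lay below all Tsk2 mice, and the difference of -2.29 did not pass (adjusted p = 0.182, 95% interval -4.37 to -0.20). Without that mouse, singled out by its Krtap values, the difference was -3.27 (adjusted p = 0.00794 by limma). In fibroblasts Krtap17-1 spanned -0.50 to 0.97 and Krtap3-2 -0.27 to 0.82, all of them repeated values, so the Tsk2 mice exceeded every fibroblast array for both genes. This held for 4 of the 42 members, and the share of all genes for which it held was not counted. The others were Krtap3-1, at 0.43 to 1.26 in Tsk2 mice, and Krtap16-3, at 0.13 to 1.05, both with much lower ratios.

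The glycine- and tyrosine-rich members were also low in Tsk2 skin. Of 14 such genes, 13 were lower in Tsk2 skin, 4 fell with all mice and 13 fell without WT replicate 4. Of the 23 cysteine-rich genes, 23 were lower, 13 fell with all mice and 22 fell without that mouse. The other 5 members were assigned to neither class, and of these 5 were lower, 2 fell with all mice and 5 fell without that mouse. Over all genes, 0.998% fell with all mice and 4.17% without it. The median over the glycine- and tyrosine-rich genes was 0.54, 0.68, 0.29 and 0.15 in Tsk2 replicates 1 to 4, against 5.98, 6.32, 6.09 and 0.07 in WT replicates 1 to 4. For the cysteine-rich genes it was 0.83, 0.33, 0.04 and 0.03, against 5.51, 5.89, 5.55 and 1.82 in the same order. WT replicate 4 therefore lay just below the Tsk2 mice for the first class and above them for the second. This contrast between the classes was not tested.

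Subfamily 19, with 6 measured members on chromosome 16, shows the low ratios of WT replicate 4 gene by gene. Differences ran from -4.93 for Krtap19-5 to -3.80 for Krtap19-2. With all mice 0 of the 6 passed by limma, where 0.998% of all genes fell, although each had an unadjusted p under 0.05. All 6 passed without WT replicate 4, where 4.17% of all genes fell, but that mouse was singled out by its low Krtap values. WT replicates 1 to 3 lay between 5.06 and 7.88, while WT replicate 4 lay between -0.76 and 0.47. Krtap19-5 read 0.47, 0.64, -0.60 and -0.19 in Tsk2 mice, against 7.48, 6.33, 6.23 and 0.00 in WT mice (adjusted p = 0.0934). The last of these is an exact zero, as it is for Krtap19-3 and Krtap14. The pair of Krtap19-1 probes differed by -4.14 and -3.80.

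Subfamily 6, with 3 members, was mixed in the test. Krtap6-1 read 0.86, 0.28, 0.55 and 0.53 in Tsk2 mice, against 7.10, 6.98, 7.28 and 2.45 in WT mice. With no repeated value in skin, it fell by 5.40 (adjusted p = 0.0330 by limma). Its Tsk2 values overlapped the fibroblasts, at -0.48 to 0.81, so the size of the fall is uncertain. Krtap6-5 and Krtap6-2 differed by -5.35 and -4.01 (adjusted p = 0.0867 and 0.114), with WT replicate 4 at 0.61 and -0.39 and the other WT mice at 5.63 or above.

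Of the single-member subfamilies of this class, Krtap8-1 fell by 3.12 (SE 0.41), Krtap21-1 by 5.58 and Krtap22-2 by 4.79. Krtap21-1 read -0.04, -0.40, -0.04 and -0.15 in Tsk2 mice, all repeated values, against 6.70, 6.90, 6.56 and 1.53 in WT mice. Krtap8-1 and Krtap22-2 were the members of this class with the highest ratios in WT replicate 4, at 2.59 and 3.19. The probes of Krtap8-1 differed by -2.31 and -3.92. Krtap7-1 differed by -2.78 (adjusted p = 0.162), and WT replicate 4, at -0.65, was below all Tsk2 mice.

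Krtap20-2 was the member with a positive difference, 1.41 (95% interval -0.03 to 2.85, adjusted p = 0.226). It read 0.00, 0.90, 2.85 and -0.11 in Tsk2 mice, against -0.56, 0.00, -1.33 and -0.11 in WT mice, and all its WT values were repeated. Krtap13 differed by -0.78 (adjusted p = 0.204), and all 8 of its skin values were repeated. These are the genes that did not pass without WT replicate 4, and neither passed in WT skin over fibroblasts, at -0.51 for Krtap20-2 and -0.07 for Krtap13.

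The remaining subfamilies lie on chromosomes 16, 10 and 1. Krtap13-1 fell by 3.54 (adjusted p = 0.0477) and Krtap28-13 by 2.90 (adjusted p = 0.0244). For Krtap12-1, Krtap26-1 and Krtap16-3 the groups did not overlap, with differences of -5.44, -5.23 and -4.94, but the adjusted p-values by limma were 0.0503, 0.0574 and 0.0638. Krtap12-1 read -0.60, 0.33, -0.58 and -0.48 in Tsk2 mice, against 6.30, 6.20, 7.04 and 0.91 in WT mice, just outside the threshold, while Krtap1-5 was just inside it. Krtap14, Krtap24-1 and Krtap15 differed by -4.44, -3.29 and -3.19 (adjusted p = 0.0934, 0.0911 and 0.196). The groups overlapped through WT replicate 4 for Krtap14 and Krtap15. For Krtap24-1 they overlapped because Tsk2 replicate 2, at 2.15, lay above WT replicate 4, at 0.84.

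**Figure D3:**
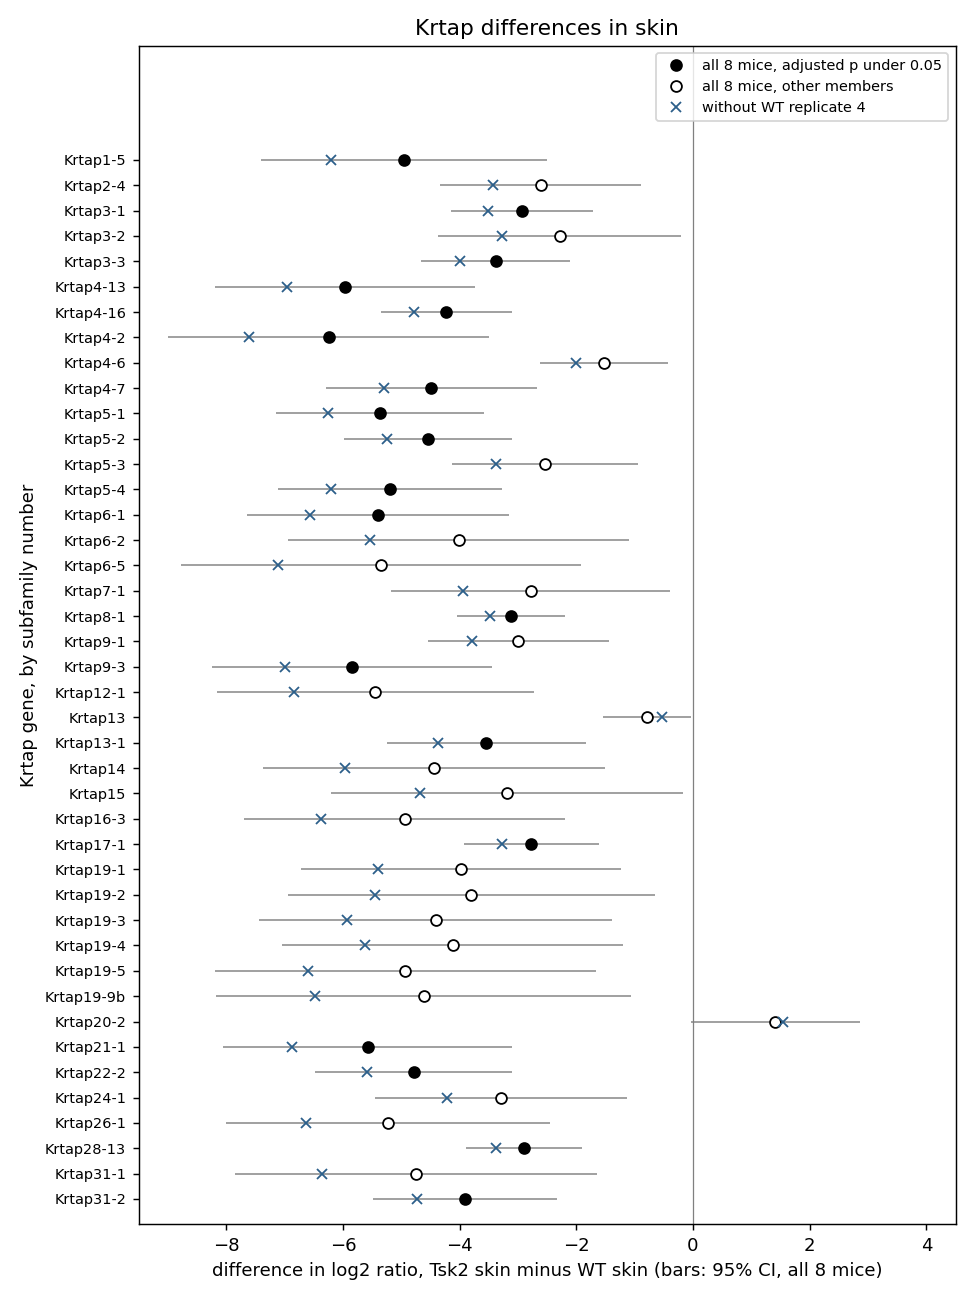
Points give the difference in log2 ratio, Tsk2 skin minus WT skin, of each Krtap gene with all 8 mice and its 95% interval, filled where the adjusted p was under 0.05, and crosses give the difference without WT replicate 4. All points but that of Krtap20-2 lie left of 0, and crosses lie further left for every gene but Krtap13 and Krtap20-2.

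Set against fibroblasts, few members were higher in Tsk2 skin and most were in WT skin. In Tsk2 skin over fibroblasts with the Tsk2 allele, 3 of the 42 were higher, where 24.6% of all genes were, with a median difference of 0.18. The 3 were Krtap3-2 at 4.04 (adjusted p = 0.00139), Krtap17-1 at 3.84 and Krtap4-16 at 1.25 (adjusted p = 0.0425), the last with 75% of its Tsk2 skin values and all its fibroblast values repeated. In WT skin over fibroblasts with the WT allele, 40 of the 42 genes were higher, where 24.4% of all genes were, with a median difference of 4.39. WT replicate 4 lay above all 6 fibroblast arrays for 24 of the 42 genes, and the share of all genes for which this held was not counted. Skin and fibroblast RNA were extracted with different kits, which cannot be told apart from the tissue.

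In the fibroblasts themselves no Krtap gene passed between the alleles. Krtap values ran from -1.39 to 2.16 over the 6 arrays, and 0 of the 42 genes passed by limma, where 0.0512% of all genes passed. At an unadjusted p under 0.05 there were 8 Krtap genes and 2186 of all 19532 genes. The lowest p-values belonged to Krtap28-13 at -1.15 (adjusted p = 0.267) and Krtap13 at -0.50 (adjusted p = 0.291). Krtap28-13 was listed at exactly 0 on all 3 Tsk2-allele arrays and read 0.59 to 1.499 with the WT allele, and 66.7% of its fibroblast values were repeated. The effect in skin minus the effect in fibroblasts passed for 8 Krtap genes, all negative, where 0.497% of all genes passed in this direction. These were Krtap4-13, Krtap4-16, Krtap5-1, Krtap5-2, Krtap5-4, Krtap6-1, Krtap8-1 and Krtap22-2, with values from -6.26 to -3.16. This count was 40 without WT skin replicate 4, and 0 without WT skin replicate 1, without any array of Tsk2-allele fibroblasts, or without WT-allele replicate 3A or 3B (31 to 34 Krtap genes and 2709 to 3141 of all genes at an unadjusted p under 0.05 where a fibroblast array was left out). It was 1 without WT-allele replicate 1, where 40 of all genes passed in either direction. It was 2 to 4 without Tsk2 skin replicate 2, 3 or 4 or WT skin replicate 2 or 3. In the fits without Tsk2 skin replicate 2, 3 or 4, 84 to 127 of all genes passed in either direction. Counts over all genes for the fits without 1 WT skin array are not given here.

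Most other hair genes were also lower in Tsk2 skin. Of 11 measured hair shaft keratins, the filament proteins that the keratin-associated proteins bind, 11 were lower and 8 fell, where 0.998% of all genes fell. Of 12 other hair shaft genes 12 were lower and 6 fell. Of 8 genes of the inner root sheath and medulla 7 were lower and 3 fell, the exception being Krt75 at 0.30 (adjusted p = 0.664). All 14 regulators of hair cell fate were lower, and of these 14 regulators of hair cell fate 1 fell, Foxn1, a transcription factor needed for hair shaft formation, with a difference of -2.57. Without WT replicate 4 the counts that fell were 10, 11, 4 and 5 in the order given, where 4.17% of all genes fell. Over the lists together, 18 genes fell with all mice, and 0 did by limma without any one of Tsk2 replicates 2 to 4 or WT replicates 1 to 3. Hoxc13, a homeobox factor known to bind hair keratin and keratin-associated protein genes, differed by -2.32 (adjusted p = 0.0539). Hoxc13 read 1.49, -0.76, 1.27 and -0.30 in Tsk2 mice, against 3.12, 2.70, 3.14 and 2.04 in WT mice.

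The lists spread the mice in different ways. In Tsk2 replicates 1 and 3 the inner root sheath and medulla list had medians of 5.05 and 4.15, and in replicates 2 and 4 of 1.03 and 0.79, against 5.45 to 6.87 in WT mice. The Krtap median in the same Tsk2 mice was 0.54 and 0.15, and 0.56 and 0.07. Hair shaft keratins lay at 2.21 in Tsk2 replicate 1 and at 0.33 to 0.51 in the other Tsk2 mice, against 5.001 to 5.26 in WT replicates 1 to 3 and 3.51 in WT replicate 4. The other hair shaft genes lay at 1.36 in Tsk2 replicate 1 and at 0.22 to 0.36 in the other Tsk2 mice. In WT replicates 1 to 3 they lay at 4.11 to 4.33, and in WT replicate 4 at 1.51. Thus the Tsk2 mice with the higher inner root sheath medians had Krtap medians between those of the other Tsk2 mice. WT replicate 4 was nearer to the other WT mice in hair keratins and inner root sheath genes than in Krtap genes, but in other hair shaft genes it lay close to Tsk2 replicate 1. These are medians over lists and were not tested.

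**Figure D4:**
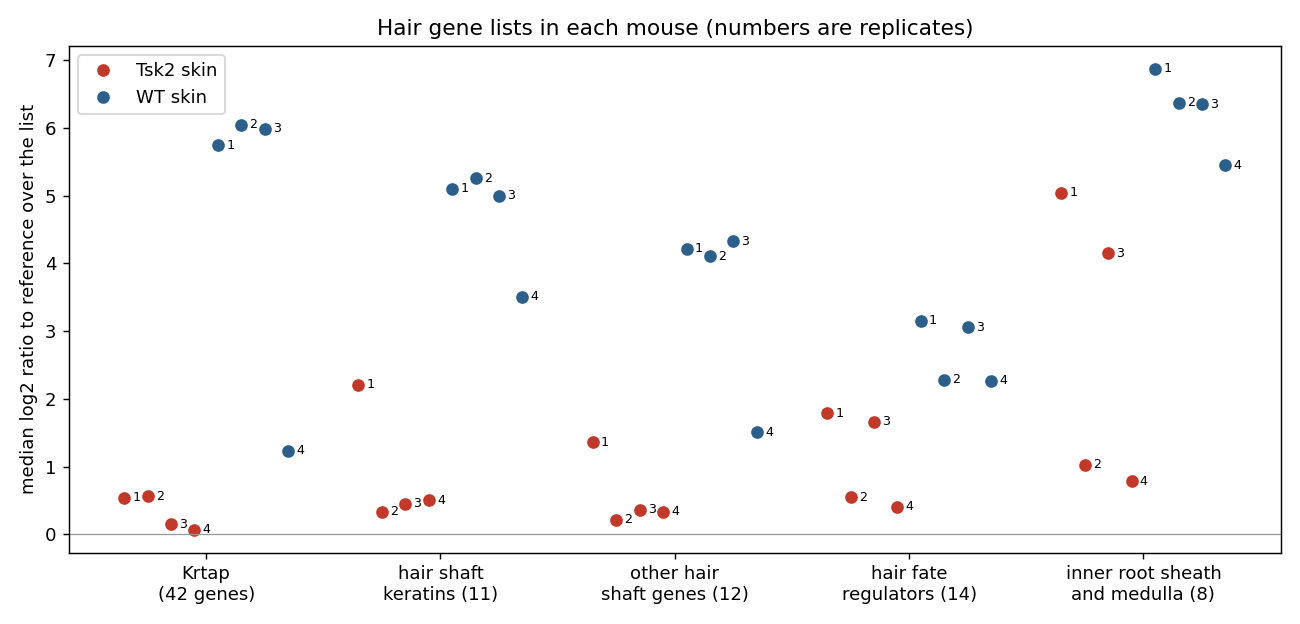
Each point is 1 mouse, numbered by replicate, and its height is the median log2 ratio to the reference over a gene list, with Tsk2 skin left of WT skin in each list. Krtap medians are 0.56 or below in all Tsk2 mice and 1.23 in WT replicate 4, while the inner root sheath list is at 5.05 in Tsk2 replicate 1 and 5.45 in WT replicate 4.

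Markers of other cell types in the skin samples were as follows. The mean over 8 epidermal markers outside the follicle was 4.48 to 5.89 in Tsk2 mice and 4.37 to 4.85 in WT mice, with 0 of 8 past the threshold by limma. All 5 dermal fibroblast markers were higher in Tsk2 skin, with list means of 2.89 to 3.28 in Tsk2 mice and 1.57 to 2.65 in WT mice, and 1 passed, Lum. The 4 melanocyte and 4 proliferation markers measured were all lower, 0 of them past the threshold. Melanocyte list means were 2.58 to 4.02 in Tsk2 mice and 2.94 to 4.94 in WT mice. In WT replicate 2 the melanocyte marker Tyrp1 was listed at exactly 0, against 6.32 to 7.15 in the other WT mice, which lowers the list mean of that mouse. Markers of other lists were also low in that mouse, such as Flg at 1.926, against 5.318 to 5.585. Lep was at 0.45, against 3.23 to 3.98, and Cdh5 at 1.13, against 3.264 to 3.417. Plin1 went the other way, at 6.794 against 4.935 to 5.195. Proliferation list means were -2.02 to -0.75 in Tsk2 mice and -1.02 to -0.31 in WT mice. Of the other lists, skeletal muscle, fat, macrophage and endothelial markers had positive median differences and 0 passed, and of 3 sebaceous gland markers 1 rose, Scd1. The part of these in the Krtap differences was not tested.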

How the data were processed

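The authors deposited 1 table of log2 ratios of sample over reference for 14 two-channel arrays. Dyes are per the labels, base 2 is inferred from the range (-9.55 to 10.97), and scanner processing is not given in the sources used here. Column medians lay between 0 and 0.043. Values were used as deposited. Probe genes came from the platform annotation, with 32664 probes on 1 symbol, 45 on several and 8465 unnamed. All 19532 named genes entered limma (version 3.58.1, under R 4.3.3), with two-sided moderated tests and a Benjamini-Hochberg threshold of 0.05, each system on its own arrays and contrasts between systems on all 14. Replicate numbers of skin are in accession order. Fits were tested on simulated data drawn with 1 spread per gene for all groups. Those data held no mouse set apart like WT replicate 4, so that test does not cover such a group. The members, lists and tests were chosen with earlier results of these data known. Classes of subfamilies are textbook knowledge. Named genes were all members past the threshold in skin, the lowest p of each subfamily, the extremes of WT ratio and difference, the 2 lowest p in fibroblasts and up to 5 separated but uncalled members. Their probes' ratios to the reference do not rank transcript levels between genes.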

Additional observations from a re-analysis of the deposited data

Results flagged for a closer look

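In the WT group, replicate 4 was far below its 3 companions for 28 of the 42 Krtap genes, judged by the gap to the nearest mouse as a share of the group's range (Dixon's test at 95%). Chance gives about 1 such group in 20, and 84 groups were looked at. These groups are not independent, since the same 4 mice make up every group of a genotype, so the 28 flags of WT replicate 4 concern 1 mouse. In the Tsk2 group 5 genes had 1 mouse far above the others.

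Among subfamilies 1 to 5 the log2 ratio of WT replicate 4 was Krtap1-5 at 1.48, Krtap2-4 at -0.03, Krtap3-1 at 1.81, Krtap3-3 at 2.77, Krtap4-7 at 2.58, Krtap5-1 at 2.59, Krtap5-2 at 2.34, Krtap5-3 at 0.16 and Krtap5-4 at 2.18. Among subfamilies 6 to 16 it was Krtap6-1 at 2.45, Krtap6-2 at -0.39, Krtap6-5 at 0.61, Krtap9-3 at 2.96, Krtap12-1 at 0.91, Krtap13-1 at 1.61, Krtap14 at 0.00 and Krtap16-3 at 1.24. For the members of subfamily 19 it was Krtap19-1 at 0.47, Krtap19-2 at -0.76, Krtap19-3 at 0.00, Krtap19-4 at -0.56, Krtap19-5 at 0.00 and Krtap19-9b at 0.15, and for the rest Krtap21-1 at 1.53, Krtap22-2 at 3.19, Krtap26-1 at 1.70, Krtap31-1 at -0.09 and Krtap31-2 at 1.22. The same mouse read 3.51 for the median hair shaft keratin, against 5.001 to 5.26 in the other WT mice. For the median of the other hair shaft genes it read 1.51, against 4.11 to 4.33. The part of this mouse in the counts in skin is given in the report.

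In Tsk2 skin the far values were those of replicate 1 for Krtap3-1 at 1.26 and Krtap5-1 at 0.69, and those of replicate 2 for Krtap12-1 at 0.33, Krtap24-1 at 2.15 and Krtap28-13 at 0.90. Each lay below WT replicates 1 to 3.

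The Tsk2 effect in skin differed from that in fibroblasts, by an interaction contrast in limma, for 8 members, with differences of Krtap4-13 at -6.26, Krtap4-16 at -3.58, Krtap5-1 at -5.41, Krtap5-2 at -4.76, Krtap5-4 at -5.25, Krtap6-1 at -6.07, Krtap8-1 at -3.16 and Krtap22-2 at -5.00 log2 units.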

How the results depend on the processing

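With all mice, 19 Krtap genes fell in skin, and the count lay between 18 and 23 when arrays were centred or quantile-normalized, when the most variable probe was used, with exact zeros as missing and without probes at repeated values. It was 37 with array weights and 37 in 1 fit of all 14 arrays, where 1726 and 2814 of all genes passed against 568, and leaving out 1 mouse gave 0 to 40. The count of other hair list genes, 18, was 29 with array weights and 32 in 1 fit of all 14 arrays, and 0 to 30 leaving out 1 mouse. In direction, 41 Krtap genes were lower in each of these fits, or 40 where Krtap13 was dropped with the probes at repeated values. The median Krtap difference of -4.17 was -3.32 after quantile normalization and -5.42 to -3.73 leaving out 1 mouse. The contrast of effects in skin and fibroblasts, passed by 8 genes, was passed by 37 with array weights and by 0 to 40 leaving out 1 array. WT skin over fibroblasts ran from 35 to 40 genes and Tsk2 skin over fibroblasts from 2 to 3 leaving out 1 array. In fibroblasts 0 Krtap genes passed by limma in each setting (at an unadjusted p under 0.05, 10 of them and 1812 of all genes with the transfection number as a replicate block, and 5 and 1478 with WT-allele replicates 3A and 3B as 1 sample). The transfection numbers were not taken as pairs, since like-numbered arrays had correlations of only 0.0082 to 0.0194 between their deviations from the group means. No single named gene changed direction. For the named genes, leaving out 1 mouse ended a call in 121 fits, made one in 12 and left 131 as they were, and the other settings ended 1, made 29 and left 200. Among the 7 members with no repeated value in skin, a choice made after seeing the data, 4 fell with all mice and 7 without WT replicate 4. Over all genes these shares were 0.998% and 4.17%. Spot signal was not analysed here, so low ratios cannot be bounded. The causes of these shifts were not tested.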
